A study of Mus musculus with 6 samples.

Results

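Intronic sense long non-coding RNAs (lncRNAs) lie inside an intron of a protein-coding gene, their host gene, and are transcribed from the same strand as it. The scanner files hold 14717 lncRNA probes by their design numbers, and 433 of them are described here, in 338 host genes. These 433 were chosen because the study placed them among its differentially expressed lncRNAs, by a fold change of at least 5 between neonatal and adult testis with a paired test on these same arrays, and because it classed their genomic context as intronic sense. The age difference itself therefore chose the members. Calls of members below come from a fit of the same contrast on the same arrays and are partly fixed by that choice, so they describe the members and are no independent test, and no p is given for a member. Total RNA came from whole testes of male C57/BL6 mice at 6 days after birth (neonatal) and at 8 weeks (adult), with 3 arrays for each age. The mice of an age were divided into 3 groups, so that an array can hold RNA of several mice.

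A lncRNA of this class can have its own promoter and its own polyadenylated end, and some such transcripts act on the gene that holds them. An intron on the sense strand is also part of the host's primary transcript before splicing. The probes were hybridized with labelled cDNA primed with oligo dT, so a separate lncRNA and unspliced host RNA cannot be told apart by a probe of this kind. The testis at 6 days holds Sertoli cells, Leydig and peritubular cells and early germ cells, whereas in the adult most cells are meiotic and postmeiotic germ cells. In whole tissue, fewer cells of a type and less RNA per cell cannot be told apart.

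Values are log2 signals relative to the 75th percentile of each array, with a floor at -7.23, and are given for neonatal replicates 1 to 3 and then for adult replicates 1 to 3. Replicate 3 of both ages shared a scan date that differed from that of the other 4 arrays. Spots flagged as outliers touched 43, 36 and 100 members on neonatal arrays 1 to 3 and 7, 2 and 17 on adult arrays 1 to 3. Flagged spots are printed with the others but were left out of the fit, and this is said beside each value they touch. A probe was called higher in an age if limma, blocked by replicate number, put the difference at 5-fold or more with an adjusted p (Benjamini-Hochberg, all tested lncRNA and mRNA probes) of 0.05 or less. If no array of an age showed a probe well above background, the difference is given as a lower bound, at least N-fold. Where a single array of an age was above background, this is said, and a fold printed there rests on values near the background.

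Of the 433 intronic sense lncRNAs, 394 could be tested, and 249 of these were called higher in neonatal testis, 40 were called higher in adult testis and 105 were not called. Over all 9396 lncRNA probes tested, 29.6% were called, 9.62% as higher in neonatal and 19.9% as higher in adult testis; since the same contrast chose the members, nothing is read from this. The other 39 members had too few complete pairs because of flagged spots. With these spots kept, 30 of the 39 passed as higher in neonatal testis and 3 as higher in adult testis. After normexp with an offset of 50, run on the median spot signal, 54 members were called higher in neonatal and 26 in adult testis. Leaving out replicate 1 or replicate 2 gave 24 members called higher in adult testis in both cases, with 298 and 291 members tested.

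Most tested members were thus higher in the young testis. Each of the 433 was detected, that is well above background, on some array, and 217 were on all 6. A further 115 were above background on neonatal arrays and on no adult array, and 23 on adult arrays and on no neonatal array. The neonatal calls had a median log2 fold change (adult minus neonatal) of -2.86, with those not above background in adult testis set to their bounds, and lay in 200 host genes. The adult calls had a median of 4.45, likewise with bounds, and lay in 39 host genes. Within single replicate pairs the median difference of the members was -2.53, -2.58 and -2.59. Among the genomic contexts of the differentially expressed lncRNAs, all chosen by this contrast, the neonatal share of the calls was 86.2% for intronic sense, 64.2% for exonic sense, 17.2% for intergenic, 13.6% for exonic antisense, 9.52% for bidirectional and 9.04% for intronic antisense lncRNAs. Nothing is read from these shares.

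Among lncRNAs measured on all 6 arrays with no flagged spot, AK049648 had the largest neonatal excess. It lies in an intron of Efna5, the gene of ephrin-A5, a membrane-anchored ligand of Eph receptors that guides cells by contact. Its signal was -1.53, -1.33 and -0.33 in neonatal testis and -5.97, -6.49 and -5.61 in adult testis, 31.1-fold lower in the adult, and the ages did not overlap. The lncRNA uc007vab lies in Farp1, which encodes a guanine nucleotide exchange factor. It read -0.44, -0.36 and 0.87 in neonatal testis and -4.96, -5.01 and -4.01 in adult testis, a 25.6-fold difference. Under normexp the log2 fold changes of these 2 lncRNAs were -3.28 and -3.49 in place of -4.96 and -4.68.

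BC002245, in the apolipoprotein L gene Apol9b, stood at 0.85, 1.12 and 1.73 in neonatal testis and -3.17, -3.02 and -2.27 in adult testis, 16.6-fold lower in the adult. The mRNA probe of Apol9b itself gave -5.97, -5.64 and -4.18 in neonatal testis and -4.68, -5.04 and -3.84 in adult testis, a log2 fold change of 0.74 (SE 0.22), so that the host did not share the difference of its intronic RNA. AK083074 lies in Apbb2, whose protein binds the amyloid precursor protein, and had -2.03, -1.71 and -1.15 in neonatal testis and -6.02, -6.20 and -4.78 in adult testis, 16.4-fold lower in adult testis. AK028958 lies in Bmp6, the gene of a bone morphogenetic protein, and gave -1.94, -1.58 and -0.76 in neonatal testis and -5.52, -5.75 and -4.93 in adult testis, a 15.8-fold difference. Its host was lower in the adult as well, at -3.80, -3.82 and -3.58 in neonatal testis and -6.00, -6.60 and -5.55 in adult testis, and with a log2 fold change of -2.32 (SE 0.20) fell just short of the 5-fold threshold. It passed the threshold after quantile normalization, after a shift to the median and without replicate 1 or replicate 3.

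Other large neonatal excesses were bounded by the background in the adult. AK020136 lies in Tanc1, the gene of a postsynaptic scaffold protein, and was higher in neonatal testis by at least 29.2-fold, with -1.38, -1.29 and -1.21 in neonatal testis and -6.54, -6.38 and -5.68 in adult testis and neonatal replicate 3 left out of the fit. AK031521 lies in Nfib, a nuclear factor I transcription factor, and read -1.93, -2.06 and -1.44 in neonatal testis and -7.23, -7.23 and -6.29 in adult testis, at least 28.2-fold higher. AK083943 lies in Nrg1, the gene of neuregulin, a ligand of ErbB receptors, and gave -2.46, -2.60 and -1.32 in neonatal testis and -7.23, -7.23 and -7.04 in adult testis, at least 26.2-fold higher. In each of these 3 lncRNAs every neonatal array was well above background and no adult array was.

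The host genes were followed through mRNA probes with the RefSeq accession that the study paired with each lncRNA. The 338 host symbols stand for 360 accessions, of which 318 have an mRNA probe. The mRNA probes had no part in the choice of members, but they are read on the same arrays and can share RNA with an intronic probe, so their values are not independent of that choice. Of the 318 host probes, 229 were tested: 71 were called higher in neonatal testis, 11 higher in adult testis and 147 were not called. Over all 15121 mRNA probes tested, 13.7% were called higher in neonatal and 12.6% higher in adult testis. The median log2 fold change of the tested hosts was -1.79, beside -0.40 over all mRNA probes, and 84.3% of the hosts were lower in the adult, beside 59.1% of all mRNA probes. Of the 89 host probes not tested, 19 lay near the background on all arrays and 70 had flagged spots, with 31 and 3 of the 70 passing as higher in neonatal and adult testis when those spots were kept. Fewer hosts could be tested without replicate 1 or replicate 2 (99 and 94), and the neonatal calls were then 26 and 20 and the adult calls 3 and 3. Under normexp 39 hosts were called higher in neonatal and 9 in adult testis, and the median was -1.20.

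In 253 pairs both the lncRNA and the host probe were tested, and 227 had differences of the same sign and 26 of opposite sign. Of the tested lncRNAs 89.3% were lower in the adult, and of the tested hosts 84.3%, so a shared sign is common in any pairing of these. A host with several lncRNAs enters several pairs. Nothing is read from the share of pairs with the same sign. Both partners were called in the same direction in 66 pairs and in opposite directions in 3. In 115 pairs the lncRNA was called and the host was not, in 17 the host was called and the lncRNA was not, and in 52 neither was called. For lncRNAs called higher in neonatal testis, the host was called higher in neonatal testis in 59 pairs, was not called in 102 and was called higher in adult testis in 1. For lncRNAs called higher in adult testis, 7 hosts were called the same way, 13 were not called and 2 were called higher in neonatal testis. Without replicate 1 or replicate 2 the same-direction pairs numbered 19 and 15. Under normexp they numbered 18, with flagged spots kept 110, and on the authors' log2 values 157. In 24 pairs the host probe stayed near the background on all arrays although the lncRNA did not, and 12 of these lncRNAs were called higher in neonatal and 5 higher in adult testis.

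The function of the host was assigned by hand for 275 of the 338 hosts, in 12 lists, with earlier results of these data known. Beside each list below stand 249 of all 394 tested members called higher in neonatal and 40 in adult testis. For the 229 tested hosts these were 71 and 11. Over all probes the shares were 9.62% and 19.9% for lncRNAs and 13.7% and 12.6% for mRNAs. Nothing about a function is read from the counts. Transcription factors formed the largest list, with 52 hosts and 84 lncRNAs. Among them 54 of 76 tested lncRNAs were called higher in neonatal and 3 in adult testis, and 13 of 35 tested host probes were called higher in neonatal and 1 in adult testis. Gli3, a transcription factor of Hedgehog signalling, was higher in neonatal testis by at least 22.2-fold, with -2.59, -2.15 and -1.64 in neonatal testis and -7.10, -7.23 and -7.23 in adult testis (adjusted p = 0.000715 from limma, neonatal replicate 3 left out). Its lncRNA AK052513 read -1.69, -1.61 and -0.33 in neonatal testis and -4.41, -4.86 and -3.53 in adult testis, 8.33-fold lower in the adult. Patz1, a zinc finger gene, was at least 11.1-fold higher in the young testis (adjusted p = 0.000164), and both of its lncRNAs, AK079369 and AK077955, were called the same way, at least 6.45-fold and at least 17.7-fold higher. Tshz3, a teashirt family zinc finger gene, was 12.5-fold lower in the adult (adjusted p = 0.000122), and its lncRNA AK084995 was called lower as well, with 1 adult array above background and no fold given. Under normexp the calls of Gli3 and Patz1 were lost.

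Lef1 was the transcription factor host called in the other direction. It encodes a nuclear partner of beta-catenin in Wnt signalling, and its mRNA probe read -7.23, -7.23 and -7.23 in neonatal testis and -4.09, -4.56 and -3.78 in adult testis, at least 7.93-fold higher in the adult (adjusted p = 0.000435). The call was lost under normexp. Its lncRNA AK020111 gave -5.33, -5.47 and -4.84 in neonatal testis and -2.57, -2.17 and -1.90 in adult testis, 7.98-fold higher in the adult. Host and intronic RNA thus shared their direction in this gene, and in both the ages did not overlap.

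Chromatin factors and transcription cofactors made up 22 hosts, with 21 of 27 tested lncRNAs called higher in neonatal testis and none in adult testis (0 of 27). Of 18 tested host probes, 6 were called higher in neonatal and 1 in adult testis. Ldb2, which binds LIM domain transcription factors, was 11.9-fold lower in the adult by the first of its probes (adjusted p = 0.000569, neonatal replicate 3 left out). Its lncRNA uc008xiv was called lower in the adult, with adult array 2 at the floor and no fold given, and AK020220 was higher in neonatal testis by at least 5.69-fold. Aff3, of the AF4 family of elongation factors, was 11.7-fold lower (adjusted p = 0.000595, neonatal replicate 3 left out) and holds 3 lncRNAs, of which AK041222 was 14.3-fold lower and AK009920, with neonatal replicate 2 left out, at least 8.25-fold higher in neonatal testis. AK017233, the remaining one, had flagged spots on neonatal arrays 1 and 3 and was not tested. Sap30bp was 7.00-fold lower with neonatal replicate 1 left out and 1 adult array above background, a call lost under normexp, and its lncRNA AK047823 was 4.30-fold lower and not called.

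RNA-binding and translation factors were 11 hosts with 16 lncRNAs, of which 9 of 14 tested were called higher in neonatal and 1 in adult testis. Of 11 tested host probes 3 were called, all higher in neonatal testis. Ctif, which acts in translation of mRNAs bound by the nuclear cap-binding complex, had -3.20, -2.93 and -3.26 in neonatal testis and -5.62, -7.23 and -7.23 in adult testis and was called lower in the adult (adjusted p = 0.00232). Of the adult arrays of Ctif only replicate 1 was above background and the others were at the floor, so no fold is given. Its lncRNA AK013628 was 22.0-fold lower with neonatal replicate 3 left out. Rbpms, whose protein has an RNA recognition motif, was 5.24-fold lower (adjusted p = 0.00130, replicate 3 left out), and AK020546 in its intron 7.18-fold with neonatal replicate 3 left out.

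Guidance, adhesion and matrix genes formed a list of 42 hosts and 53 lncRNAs. Of 51 tested lncRNAs 35 were called higher in neonatal and 2 in adult testis, and of 27 tested host probes 8 were called, all higher in neonatal testis. Cdh10, a cadherin, was 28.7-fold lower in adult testis (adjusted p = 0.000380, neonatal replicate 3 left out), whereas its lncRNA AK021040 was higher in neonatal testis by at least 3.34-fold and was not called. Itga4, the integrin alpha 4 subunit, was 15.6-fold lower (adjusted p = 0.000459, neonatal replicate 3 left out). Its lncRNA AK164022 was higher in neonatal testis by at least 8.65-fold. Clstn2, a calsyntenin of the synaptic membrane, was 13.6-fold lower and its lncRNA AK049981 15.8-fold, both with neonatal replicate 3 left out.

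Growth factor and receptor signalling genes were 16 hosts, with 10 of 13 tested lncRNAs called higher in neonatal testis and 0 in adult testis. Of 9 tested host probes 4 were called, all higher in neonatal testis. Nrg1 mRNA read -2.65, -2.77 and -1.91 in neonatal testis and -6.67, -6.20 and -5.71 in adult testis, 13.5-fold lower in the adult (adjusted p = 0.000199, 1 adult array above background), a call lost under normexp. Fgf13, an intracellular relative of fibroblast growth factors that binds sodium channels, was 13.4-fold lower (adjusted p = 0.000513, neonatal replicate 3 left out), and its lncRNA AK020501 at least 5.89-fold higher in neonatal testis. Tmeff2, a transmembrane protein with follistatin-like domains, was higher in neonatal testis by at least 6.25-fold, and AK082632 in its intron at least 8.95-fold. The call of Tmeff2 was lost under normexp.

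Kinases, phosphatases and second messenger enzymes were 27 hosts with 38 lncRNAs. Of 34 tested lncRNAs 21 were called higher in neonatal and 4 in adult testis, and of 16 tested host probes 4 and 1. Nrk, a kinase of the germinal centre family encoded on the X chromosome, had the largest host difference of the list, -0.84, -1.18 and -1.18 in neonatal testis and -6.56, -5.84 and -6.22 in adult testis, 36.6-fold lower in the adult (adjusted p = 0.00146, neonatal replicate 3 left out). Its lncRNA AK044923 was higher in neonatal testis by at least 2.14-fold and was not called. Ptprd, a receptor tyrosine phosphatase, was 8.41-fold lower and Prkd1, the gene of protein kinase D1, 5.81-fold, both with replicate 3 left out. Their lncRNAs AK053007 and AK033273 were 11.5-fold (neonatal replicate 3 left out) and 9.96-fold lower.

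Ion channels, transporters and synaptic proteins were 32 hosts, with 20 of 33 tested lncRNAs called higher in neonatal and 6 in adult testis. Of 26 tested host probes 7 were called higher in neonatal and 1 in adult testis. Casq2, a calcium-binding protein of the sarcoplasmic reticulum, was 15.02-fold lower and AK014550 in its intron at least 12.2-fold higher in neonatal testis, both with neonatal replicate 3 left out. Gria3, a glutamate receptor subunit, was 7.30-fold lower with neonatal replicate 3 left out, and AK038732 6.57-fold. Grid1, another glutamate receptor gene, was 5.59-fold higher in the adult (adjusted p = 0.00397, adult replicate 3 left out). This call was lost after quantile normalization, a shift to the median or normexp. Its lncRNA AK052050 was higher in neonatal testis by at least 2.03-fold and was not called.

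Cytoskeleton and membrane traffic genes were 36 hosts with 41 lncRNAs, of which 21 of 39 tested were called higher in neonatal and 1 in adult testis. Of 26 tested host probes 7 were called, all higher in neonatal testis. Fign, a microtubule-severing protein, was 17.4-fold lower in the adult (adjusted p = 0.00134, neonatal replicate 3 left out), and its lncRNAs AK043397 and AK035003 were 12.0-fold lower and at least 6.41-fold higher in neonatal testis. Nav1, a neuron navigator that follows microtubule plus ends, had 0.77, 1.12 and 2.17 in neonatal testis and -2.72, -3.10 and -2.16 in adult testis, 16.1-fold lower (adjusted p = 0.000302). AK011385 in its intron was called lower too, with adult arrays 1 and 2 at the floor and no fold given. Phldb2 was 9.26-fold lower with replicate 3 left out, and its lncRNA AK017264 at least 7.84-fold higher in neonatal testis.

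The ubiquitin and proteolysis list had 15 hosts, with 8 of 16 tested lncRNAs called higher in neonatal and 2 in adult testis. Its 7 tested host probes gave 2 calls, both higher in neonatal testis. They were the ubiquitin-conjugating enzyme gene Ube2e3, 12.2-fold lower in the adult, and the F-box gene Fbxl7, 10.7-fold lower, both with neonatal replicate 3 left out. AK078845 in Ube2e3 was 5.06-fold lower with the same array left out, and AK148658 in Fbxl7 was not tested. Among the 8 hosts of DNA replication, repair and the cell cycle, 4 of 6 tested lncRNAs were called higher in neonatal and 0 in adult testis. Cables1 was at least 23.2-fold higher and Nsmce2, a SUMO ligase of the SMC5/6 complex, 6.20-fold higher in neonatal testis, both with neonatal replicate 1 left out. Nsmce2 also lost its call with no replicate block or with flagged spots kept. Polb, the polymerase of base excision repair, read 2.99, 2.83 and 2.99 in neonatal testis and 5.59, 5.48 and 5.81 in adult testis, 6.17-fold higher in the adult (adjusted p = 0.00102, replicate 3 left out). Under normexp the calls of Cables1 and Nsmce2 were lost, and after quantile normalization that of Polb.

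Genes of the cilium and flagellum formed a list together with genes named only from testis transcripts. It was the list in which every lncRNA was called higher in adult testis, 8 of 8. The list was made by hand with earlier results of these data known, so nothing is read from its counts. Its 5 tested host probes were all called higher in adult testis as well. Agbl4 encodes a carboxypeptidase that trims glutamate chains from tubulin. Its mRNA read -6.17, -6.07 and -6.05 in neonatal testis and 2.73, 2.63 and 3.20 in adult testis, 445-fold higher in the adult (adjusted p = 0.000160, adult replicate 3 left out), and its lncRNA AK021053 -5.32, -5.45 and -4.92 in neonatal testis and -2.32, -2.32 and -1.69 in adult testis, 8.67-fold higher. Iqcd encodes a subunit of the regulatory complex of axonemal dynein, and its mRNA gave -3.76, -3.51 and -3.92 in neonatal testis and 2.98, 3.00 and 3.24 in adult testis, 98.5-fold higher (adjusted p = 0.000231, adult replicate 3 left out). Its lncRNA AK003348 had -5.37, -5.19 and -4.31 in neonatal testis and -1.65, -1.89 and -1.55 in adult testis, 9.59-fold higher. In both genes the intronic RNA shared the direction of the host with a smaller difference.

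The gene 4931417E11Rik, of no assigned function, read -7.23, -7.23 and -6.26 in neonatal testis and 3.42, 3.14 and 3.76 in adult testis and was called higher in the adult (adjusted p = 0.000142, adult replicate 3 left out). Neonatal arrays 1 and 2, which the fit used, were at the floor, so no fold is given. Its lncRNA uc009cjn read -7.23, -7.23 and -7.23 in neonatal testis and 2.51, 2.67 and 1.98 in adult testis, at least 846-fold higher, with adult replicate 3 left out of the fit. The other members of the list were AK077189 in 4930588N13Rik (Tex26), AK007183 in Ccdc113, AK006238 in Dcdc2c, AK086609 in Lrriq1 and AK015154 in Armc4. Tex26 mRNA was 50.5-fold and Ccdc113 mRNA 90.3-fold higher in adult testis, the latter with adult replicate 3 left out. The lncRNA of Tex26 was at least 77.0-fold higher with adult replicate 3 left out, and that of Ccdc113 was called higher, without a fold since 2 neonatal arrays were at the floor. Spermatids, which build the sperm flagellum, are absent at 6 days.

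Enzymes that build glycans were 6 hosts with 10 lncRNAs, of which 4 of 9 tested were called higher in neonatal and 5 in adult testis. None of the 3 tested host probes was called (0 of 3). St6gal1, a sialyltransferase of N-glycans, holds 3 lncRNAs, AK018000, AK014756 and AK039696, all called lower in the adult. AK014756 was 10.2-fold lower and AK039696 9.40-fold with neonatal replicate 3 left out, and AK018000, with adult array 2 at the floor, is given no fold. St6gal1 mRNA was 4.60-fold lower, under the 5-fold threshold, with replicate 3 left out. St6galnac3, which adds sialic acid to glycolipids and O-glycans, holds AK005899 and uc008rtx, both higher in adult testis. AK005899 read -7.23, -7.23 and -7.23 in neonatal testis and 1.96, 2.12 and 2.04 in adult testis, at least 577-fold higher, and uc008rtx -6.10, -5.89 and -6.07 in neonatal testis and 0.63, 0.78 and 0.27 in adult testis, 104-fold higher, with adult replicate 3 left out of both fits. No array detected the mRNA of St6galnac3, so only the intronic probes of this gene showed signal.

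Hosts known from germ cells or gonad development were 16, each with 1 lncRNA. Of 12 tested lncRNAs 9 were called higher in neonatal and 1 in adult testis, and of 9 tested host probes 4 were called higher in neonatal testis and 0 in adult testis. The called hosts were Gli3 and Nrg1, given above, and Lhx9 and Bcl2. Lhx9 is a LIM homeobox gene needed to form the gonad, and read -0.18, -0.31 and 0.14 in neonatal testis and -3.16, -2.96 and -2.61 in adult testis, 7.02-fold lower in the adult (adjusted p = 0.00127). Its lncRNA AK014037 had 0.30, 0.14 and 1.22 in neonatal testis and -3.26, -2.53 and -2.65 in adult testis, 8.62-fold lower, with neonatal replicate 3 left out of both. Bcl2, which protects cells from apoptosis, was 7.04-fold lower (adjusted p = 0.000920, neonatal replicate 3 left out), and AK047377 in its intron at least 8.63-fold higher in neonatal testis.

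Wt1, a transcription factor that Sertoli cells need, had flagged spots on replicate 3 and adult array 2 and was not tested. Its mRNA read 4.62, 4.63 and 4.24 in neonatal testis and 2.94, 2.82 and 2.77 in adult testis and its lncRNA AK015151 -0.13, -0.25 and -1.62 in neonatal testis and -5.28, -5.28 and -5.54 in adult testis. With flagged spots kept, the log2 fold changes were -1.65 for Wt1 and -4.70 for AK015151, which was flagged on neonatal arrays 1 and 2. Zbtb16, a zinc finger gene that maintains spermatogonial stem cells, gave 1.05, 1.06 and 0.31 in neonatal testis and -2.84, -2.82 and -2.84 in adult testis, flagged on neonatal arrays 1 and 3, and had a log2 fold change of -3.64 with these spots kept. Its lncRNA AK080917 was 6.94-fold lower in the adult with neonatal replicate 3 left out. The X-linked zinc finger gene Zfx was flagged on all 6 arrays, with a log2 fold change of -3.01 when kept, and its lncRNA AK087704 read -0.86, -0.98 and -0.10 in neonatal testis and -3.67, -3.22 and -2.57 in adult testis, 5.69-fold lower. In each of these 3 genes host and lncRNA were both lower on every adult array than on any neonatal array.

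Signalling genes of the same list were Bmpr2, Erbb4, Tgfb2 and Igf1r, and the lncRNAs of Bmpr2 and Erbb4 were called higher in neonatal testis. The lncRNA AK083553 in Bmpr2, a bone morphogenetic protein receptor, was 6.36-fold lower in the adult with neonatal replicate 3 left out, and Bmpr2 itself 4.10-fold with the same array left out, not called; with no replicate block Bmpr2 was called, at a log2 fold change of -2.36. AK045293 in Erbb4, a neuregulin receptor, was higher in neonatal testis by at least 7.39-fold, while no array detected Erbb4 mRNA. AK051822 in Tgfb2, a transforming growth factor beta ligand, was higher in neonatal testis by at least 3.55-fold and not called, and Tgfb2 at least 1.43-fold. Under normexp the log2 fold change of Tgfb2 was 0.26, the opposite sign. AK083489 in the insulin-like growth factor receptor gene Igf1r and Igf1r itself were not tested, and with flagged spots kept had log2 fold changes of -3.50 and -2.47.

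The remaining members of the list differed from one another. The lncRNA AK030592 in Msi2 had a log2 fold change of -3.67 with flagged spots kept, and Msi2, a Musashi protein, of -1.77 (SE 0.17, replicate 3 left out). Celf1 was close to equal between the ages, with 1.19, 0.95 and 0.97 in neonatal testis and 1.26, 1.51 and 0.88 in adult testis and replicate 3 flagged, and its lncRNA AK020216 was lower in the adult and not called, with adult arrays 1 and 2 at the floor. For Pafah1b1, a regulator of dynein, and its lncRNA uc007kcg the log2 fold changes with flagged spots kept were -0.76 and -2.43. Ppp2r2b, a regulatory subunit of protein phosphatase 2A, was the one host of the list with an adult-higher lncRNA. AK046275 read -7.23, -7.23 and -7.23 in neonatal testis and -4.83, -3.26 and -4.09 in adult testis, at least 8.40-fold higher in the adult, and Ppp2r2b with flagged spots kept had a log2 fold change of 3.95.

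More than 1 intronic sense lncRNA was found in 62 hosts, which hold 157 of the 433 members. Of these hosts 39 hold 2, 17 hold 3, 3 hold 4, 2 hold 5 and 1 holds 6. All lncRNAs were called higher in neonatal testis in 25 of the 62 hosts, and the lncRNAs had differences of both signs in 4. Within a host the tested lncRNAs spanned a median of 0.89 on the log2 scale, and of 1.15 in hosts with 3. Members of 1 host share its introns and can share its primary transcript, and are no replicates of one another. Hosts with 3 lncRNAs, all called higher in neonatal testis, were 4933407C03Rik (Cmip), Meis1, Pde4d, Ptprm and St6gal1. Cmip is an adaptor of signalling in T cells, Meis1 a homeodomain partner of Hox proteins, Pde4d a cyclic AMP phosphodiesterase and Ptprm a receptor tyrosine phosphatase. Folds ranged over 6.12 to 12.3 in Cmip and over 6.25 to 7.65 in Pde4d.

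Tcf4, an E-protein transcription factor, holds the most, 6 lncRNAs, within chr18:69513253-69808707 (mm9), with smaller differences than those of Efna5 or Nfia. AK017601 was 5.31-fold lower in the adult and was called, with -1.37, -1.27 and -1.83 in neonatal testis and -3.73, -3.73 and -3.89 in adult testis and neonatal replicate 3 left out. AK031515 and AK036075 were 4.66-fold and 4.22-fold lower, with neonatal replicate 3 left out, and were not called. AK032144 was lower and not called, with adult arrays 1 and 2 at the floor. AK052227, at least 2.43-fold higher in neonatal testis, was not called either. AK021120 was not tested and stood at -2.26 with flagged spots kept. The 2 probes of Tcf4 mRNA had log2 fold changes of -1.03 and -1.05 with replicate 3 left out. On every adult array each of the 6 lncRNAs was lower than on the neonatal array of the same replicate.

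Efna5 holds 5 lncRNAs on the minus strand of chromosome 17, spread over chr17:63148083-63220849 (mm9), none overlapping another. All 5 were called higher in neonatal testis. AK052483, at chr17:63148083-63152573, read -2.22, -1.81 and -0.86 in neonatal testis and -5.78, -6.24 and -5.54 in adult testis, 16.0-fold lower in the adult with neonatal replicate 3 left out. AK077887, at chr17:63156922-63159447, gave -2.86, -2.63 and -2.06 in neonatal testis and -6.43, -6.68 and -6.05 in adult testis, 14.6-fold lower. AK030418, at chr17:63195382-63198758, had -3.88, -3.42 and -2.55 in neonatal testis and -7.23, -7.23 and -7.23 in adult testis, at least 9.16-fold higher in neonatal testis with neonatal replicate 3 left out. In all 3 the ages were apart by more than the spread between arrays of an age. AK049648, given above, is at chr17:63208869-63212588. AK032146, at chr17:63218194-63220849, read -2.02, -1.65 and -2.36 in neonatal testis and -6.23, -6.81 and -6.58 in adult testis, 25.8-fold lower with neonatal replicate 1 left out and 1 adult array above background. The first of 2 probes for Efna5 mRNA read -0.86, -0.75 and -0.56 in neonatal testis and -5.70, -5.41 and -5.47 in adult testis and the second -0.82, -0.56 and -0.58 in neonatal testis and -5.30, -5.34 and -4.92 in adult testis. Neither could be tested, since neonatal arrays 2 and 3 were flagged in both and neonatal array 1 in the second. With flagged spots kept their log2 fold changes were -4.80 and -4.53. Those of AK049648 and AK032146 were -4.96 and -4.69, and those of AK052483 and AK077887 were -4.00 and -3.87. The mRNA was thus lower together with its intronic RNAs, which differed among themselves in size.

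Celf2, which regulates splicing, also holds 5 lncRNAs, within chr2:6529251-6967665 (mm9). AK013655 read 0.65, 0.64 and 1.90 in neonatal testis and -1.87, -1.77 and -0.83 in adult testis, 5.87-fold lower in the adult. AK019879 gave 0.51, 0.83 and 1.04 in neonatal testis and -2.84, -2.16 and -1.33 in adult testis, 9.02-fold lower, AK032294 was 5.31-fold and AK038251 5.20-fold lower, each with neonatal replicate 3 left out. AK081284 was 4.74-fold lower and not called. The 4 accessions of Celf2 had log2 fold changes of -1.96, -1.83, -2.02 and -1.85, with adjusted p of 0.000307, 0.000408, 0.00231 and 0.000397 from limma, all under the 5-fold threshold; neonatal replicate 3 was left out for the accession at -2.02. The probes of the 4 accessions read alike, at -2.30 or -2.31 on neonatal array 1, and are not 4 separate results. The intronic and mRNA probes of this gene were lower together. Of the 5 lncRNAs 4 passed the 5-fold threshold, but none of the accessions did.

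Nfia, a nuclear factor I transcription factor, holds 4 lncRNAs within chr4:97249006-97572379 (mm9), all called higher in neonatal testis. AK083863 read -2.05, -1.83 and -0.93 in neonatal testis and -5.50, -5.88 and -4.81 in adult testis, 13.9-fold lower in the adult, and AK078562 -0.90, -0.76 and -1.61 in neonatal testis and -4.21, -3.69 and -4.34 in adult testis, 7.94-fold lower. AK037386 was 7.36-fold lower with neonatal replicate 3 left out, and AK164363 at least 5.53-fold higher in neonatal testis. The 3 probes of Nfia mRNA were flagged on neonatal arrays 1 and 2 and were not tested; with the spots kept their log2 fold changes were -2.66, -2.31 and -2.48.

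Maml3, a Mastermind coactivator of Notch signalling, holds 4 lncRNAs within chr3:51676912-51877309 (mm9), none of them well above background in adult testis. AK038829 read -3.57, -3.32 and -3.59 in neonatal testis and -7.23, -7.23 and -7.23 in adult testis, at least 10.2-fold higher in neonatal testis. AK044131 was at least 4.64-fold higher by its bound and was called, and AK017326 and AK086422, at least 3.12-fold and 2.17-fold higher, were not. Maml3 mRNA gave -1.07, -1.02 and -0.60 in neonatal testis and -2.81, -2.74 and -2.20 in adult testis, 3.32-fold lower in the adult (adjusted p = 0.00237, neonatal replicate 3 left out) and under the threshold. Unlike the lncRNAs, the mRNA stayed well above background on every adult array.

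Ebf1, a transcription factor of B cells and mesenchymal cells, holds 4 lncRNAs within chr11:44469290-44607782 (mm9). AK035973 read -1.46, -1.24 and -0.79 in neonatal testis and -5.44, -5.71 and -5.08 in adult testis, 18.7-fold lower in the adult, and AK140807 0.10, 0.44 and 0.44 in neonatal testis and -3.39, -3.31 and -3.11 in adult testis, 12.3-fold lower, both with neonatal replicate 3 left out. AK084616 and AK051309 were not tested, and with flagged spots kept had log2 fold changes of -3.69 and -4.18. Ebf1 mRNA had -0.19, -0.30 and -0.54 in neonatal testis and -3.10, -2.77 and -3.01 in adult testis, 6.45-fold lower (adjusted p = 0.00177, neonatal replicate 3 left out). Host and lncRNAs of Ebf1 were thus lower together.

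Promoters are shown for 3 of the 6 hosts with at least 4 lncRNAs, each with 1 start in the RefSeq table of GRCm38.p6, since the promoter is where the primary transcript of a host, introns included, begins. The table holds a promoter for 266 of the 338 hosts. Each is 300 bases on the strand of the gene, written 5′ to 3′, and capitals mark the GC box on either strand. Both strands were searched for the GC box GGGCGG, found in 35.7% of 32851 promoters of this length, for the CCAAT box, found in 37.4%, and for the TATA box TATAAA, found in 13.6%.
Efna5: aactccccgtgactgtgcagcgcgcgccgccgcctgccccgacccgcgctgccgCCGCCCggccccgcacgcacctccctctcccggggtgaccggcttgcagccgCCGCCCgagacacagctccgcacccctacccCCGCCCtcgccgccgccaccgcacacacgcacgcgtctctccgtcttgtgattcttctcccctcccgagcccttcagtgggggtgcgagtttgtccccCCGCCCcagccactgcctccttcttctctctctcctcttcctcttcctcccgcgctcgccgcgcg
Maml3: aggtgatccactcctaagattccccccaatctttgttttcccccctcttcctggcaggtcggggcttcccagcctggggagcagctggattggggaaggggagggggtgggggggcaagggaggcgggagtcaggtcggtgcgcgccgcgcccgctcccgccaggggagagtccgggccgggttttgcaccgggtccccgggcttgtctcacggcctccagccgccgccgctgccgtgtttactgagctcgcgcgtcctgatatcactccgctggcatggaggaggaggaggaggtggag
Nfia: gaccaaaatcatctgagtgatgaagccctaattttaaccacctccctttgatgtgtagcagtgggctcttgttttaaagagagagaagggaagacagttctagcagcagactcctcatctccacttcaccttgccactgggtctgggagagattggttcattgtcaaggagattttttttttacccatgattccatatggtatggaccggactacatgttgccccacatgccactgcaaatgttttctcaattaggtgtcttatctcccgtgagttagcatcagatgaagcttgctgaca
The promoter of Efna5 (chr17:62881268-62881567, minus strand) has 4 GC boxes, 0 CCAAT boxes and 38 CpG sites in 73.3% G and C. That of Maml3 (chr3:52104957-52105256, minus strand) has 0 GC boxes, 2 CCAAT boxes and 22 CpG sites in 68.3% G and C. That of Nfia (chr4:97581693-97581992, plus strand) has 0 GC boxes, 1 CCAAT box and 2 CpG sites in 44.7% G and C. The TATA box was found in 0 of the 3. The median promoter of the table has 7 CpG sites and 52.7% G and C. These matches are a description, and no link between them and the levels was tested.

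Both partners were called in opposite directions in the 3 pairs given above, in 7 pairs with flagged spots kept, in 12 on the authors' log2 values and in 15 at a fold change of at least 2. Baz2b, which encodes a bromodomain protein that reads chromatin, was higher in the adult with -1.06, -0.99 and -0.39 in neonatal testis and 2.54, 2.14 and 3.02 in adult testis, 10.4-fold (adjusted p = 0.000190). Its lncRNA AK132411, at chr2:59860434-59864168 (mm9, minus strand), was lower, with -1.43, -1.30 and -1.34 in neonatal testis and -4.98, -4.77 and -4.50 in adult testis, 11.4-fold with neonatal replicate 3 left out. The log2 fold change of the lncRNA minus that of the mRNA was -6.89, and in neither did the ages overlap. AK086405, the other lncRNA in Baz2b, had flagged spots on all neonatal arrays and read -1.82, -1.74 and -1.33 in neonatal testis and -4.46, -4.59 and -5.95 in adult testis, in the same direction as AK132411.

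Srrm4, a splicing regulator known from neurons, and Fam171a1, a membrane protein gene, showed the opposite arrangement. Srrm4 mRNA read -2.24, -1.97 and -1.43 in neonatal testis and -4.95, -4.84 and -4.63 in adult testis, 7.64-fold lower in the adult (adjusted p = 0.000256). Its lncRNA AK016992, at chr5:116951383-116952725 (mm9, minus strand), gave -7.23, -7.23 and -7.23 in neonatal testis and -2.77, -3.49 and -3.74 in adult testis, at least 13.9-fold higher in the adult. Fam171a1 mRNA had -1.0, -0.94 and -0.62 in neonatal testis and -3.51, -3.88 and -3.48 in adult testis, 6.59-fold lower (adjusted p = 0.00164, neonatal replicate 3 left out). Its lncRNA AK006821, at chr2:3066075-3066503 (mm9, plus strand), read -7.23, -7.23 and -7.23 in neonatal testis and -2.29, -2.54 and -2.10 in adult testis, at least 28.3-fold higher in the adult. In both genes no neonatal array detected the lncRNA and every neonatal array detected the host. Under normexp 1 opposite pair was called, that of Baz2b, and without replicate 1 or without replicate 2 it was 1 pair, that of Srrm4, since the others then had fewer than 2 complete pairs.

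In 6 further pairs the lncRNA was called higher in neonatal testis while the fitted difference of the mRNA was positive and not called. Among them are BC002245 in Apol9b, given above, and AK020650 in Nf1, with log2 fold changes of -2.38 for AK020650 and 1.16 for Nf1. In 7 others the lncRNA was called higher in the adult while the fitted difference of the mRNA was negative and not called. The 5 in which that fitted value lay beyond -1 on the log2 scale are given here. Magi1, a scaffold protein of tight junctions, had the widest gap. Its lncRNA AK019673 read -5.87, -5.94 and -5.89 in neonatal testis and 1.54, 1.82 and 1.82 in adult testis, 192-fold higher in the adult with adult replicate 3 left out, while the 2 probes of Magi1 mRNA had log2 fold changes of -1.43 and -1.57. A second lncRNA of Magi1, AK047526, had -4.17, -3.57 and -5.04 in neonatal testis and -7.05, -6.92 and -7.23 in adult testis and was higher in neonatal testis by at least 6.00-fold, the direction of its host. Sypl2, a synaptophysin-like gene, was higher in neonatal testis by at least 3.00-fold, and AK005920 in its intron read -7.22, -7.08 and -6.32 in neonatal testis and -1.18, -1.34 and -1.60 in adult testis and was called higher in the adult, without a fold since 2 of the 3 neonatal arrays were above background and array 1 lay close to the floor. Mgat4a, an enzyme of N-glycan branching, had 0.28, 0.36 and 0.27 in neonatal testis and -0.87, -0.84 and -0.97 in adult testis, 2.26-fold lower with neonatal replicate 3 left out. NR_024017 in its intron gave -7.23, -7.23 and -7.23 in neonatal testis and -3.12, -3.50 and -1.39 in adult testis, at least 22.0-fold higher, with adult replicate 3 above the other adult arrays.

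Sorcs1, a sorting receptor, was higher in neonatal testis by at least 2.15-fold, and its lncRNA AK017078 read -6.88, -7.23 and -5.44 in neonatal testis and -3.38, -2.96 and -3.13 in adult testis and was called higher in the adult, without a fold since neonatal array 2 lay at the floor. Foxp2, a forkhead transcription factor, was higher in neonatal testis by at least 1.63-fold, and AK035449 at least 7.98-fold higher in adult testis. The levels of Sypl2, Sorcs1 and Foxp2 mRNA lay near the background, and none of these mRNAs was detected on an adult array. Under normexp the log2 fold changes of Sorcs1 and Foxp2 were 0.05 and 0.28, the opposite sign. Without a floor or with a floor set before scaling, Sypl2 was called higher in neonatal testis and made a further opposite pair.

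Besides Magi1, other hosts held lncRNAs in both directions. Pde7b, a cyclic AMP phosphodiesterase, holds AK015069 with -7.23, -7.23 and -7.23 in neonatal testis and 0.47, 0.36 and 0.28 in adult testis, at least 187-fold higher in the adult with adult replicate 3 left out. Its other lncRNAs, AK053561 and AK077974, were lower in the adult, AK053561 by 4.68-fold and not called. AK077974 was called, with 1 adult array above background, adult array 3 at the floor and no fold given. No array detected the mRNA probe matched to Pde7b, so the direction of the mRNA of this host was not measured. Ldlrad3, which has a low-density lipoprotein receptor domain, holds AK006976, with -6.32, -5.48 and -6.91 in neonatal testis and -1.37, -1.18 and -0.01 in adult testis, called higher in the adult with 1 neonatal array above background and so without a fold, and AK047121, at least 2.80-fold higher in neonatal testis and not called. Ldlrad3 mRNA was not tested, and with flagged spots kept its log2 fold change was -2.67.

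Among the other lncRNAs of the adult testis, uc008kjs had the largest excess of those measured on all 6 arrays with no flagged spot. It lies in P2rx3, the gene of an ATP-gated ion channel, and read -0.84, -0.82 and -0.29 in neonatal testis and 2.77, 3.08 and 3.61 in adult testis, 13.96-fold higher in the adult. P2rx3 mRNA was near the background, at -6.13, -6.13 and -6.92 in neonatal testis and -4.64, -5.17 and -5.95 in adult testis, a log2 fold change of 1.14 (SE 0.16). The largest bound was that of AK006169, at chr10:63263619-63264101 (mm9, plus strand), in the alpha-T-catenin gene Ctnna3. It was at the floor on all neonatal arrays and read 3.24, 3.05 and 2.78 in adult testis, at least 1242-fold higher with adult replicate 3 left out. No mRNA probe was matched to Ctnna3.

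Markers of testis cell types were read on the same arrays, as the signal relative to the 75th percentile, summed over each list with flagged spots kept. On single arrays another gene of a list could be brighter than the one named as the brightest. The 5 stromal fibroblast genes, Dcn the brightest, summed to 134, 130 and 192 on the neonatal arrays and 19.1, 25.7 and 26.6 on the adult arrays, and 2 of 3 tested were called higher in neonatal testis. The 7 measured Sertoli genes of 8 listed, Inha the brightest, summed to 79.6, 86.8 and 62.9 on the neonatal arrays and 19.7, 15.04 and 13.5 on the adult arrays, with 1 of 3 tested called higher in neonatal testis. The 10 spermatogonium genes, Uchl1 the brightest, summed to 109, 118 and 104 on the neonatal arrays and 23.4, 24.4 and 18.7 on the adult arrays, with 3 of 8 tested called higher in neonatal and 1 in adult testis; Gfra1 was detected on no array, and Ret and Nanos2 on no adult array. These 3 lists were higher on every neonatal array than on any adult array. The 5 endothelial genes, Cdh5 the brightest, summed to 7.63, 8.77 and 14.9 on the neonatal arrays and 2.14, 1.76 and 3.25 on the adult arrays, with 2 of 5 called higher in neonatal testis. The 5 peritubular myoid genes, Myh11 the brightest and Cnn1 detected on no array, summed to 21.7, 22.0 and 27.0 on the neonatal arrays and 4.79, 4.34 and 6.55 on the adult arrays, with 0 of 4 called. Macrophage genes, 4 measured of 6 listed with Mrc1 the brightest, summed to 5.15, 5.03 and 4.09 on the neonatal arrays and 4.53, 4.64 and 4.39 on the adult arrays, with 0 of 2 called.

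Other lists were higher in adult testis by their sums, which follow their brightest genes. The 6 spermatid genes, Prm2 the brightest in adult testis, summed to 0.648, 0.689 and 0.775 on the neonatal arrays and 1029, 1199 and 1399 on the adult arrays, and 5 of 5 tested were called higher in adult testis. The 8 spermatocyte genes, Pgk2 the brightest in adult testis but near the background in neonatal testis, summed to 25.4, 22.0 and 31.8 on the neonatal arrays and 272, 286 and 347 on the adult arrays, with 4 of 7 tested called higher in adult testis. The 6 Leydig genes, Insl3 the brightest in adult testis, summed to 8.96, 9.69 and 5.74 on the neonatal arrays and 73.3, 57.5 and 53.8 on the adult arrays, with 0 of 3 tested called. Of the tested spermatocyte genes not called, Sycp1 and Ldhc had log2 fold changes of 0.81 and 1.74 and Dmc1 of -2.06. The tested Leydig genes Cyp11a1, Star and Lhcgr had 1.16, 1.34 and -0.17. Insl3, Hsd3b6 and Cyp17a1 had flagged spots and were not tested. The part of each of these marker lists in the differences of the lncRNAs and their hosts was not tested.

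The 5-fold threshold of the study can be seen in the log2 values that it deposited, on which all 433 members differ by at least 2.32 between the means of the ages, 388 higher in neonatal and 45 in adult testis. Just inside it lay AK017326 in Maml3, with -1.43, -1.23 and -0.76 on the neonatal arrays and -3.86, -3.43 and -3.10 on the adult arrays, a difference of -2.32. Next were AK039045 in Arid5b and AK032538 in Dync1i1, with differences of -2.33 and -2.33. Just outside, among lncRNA probes that are not members, lay uc008urt, uc007zsj and AK037075, with differences of 2.32, 2.32 and -2.32. On the scale used here AK017326 was higher in neonatal testis by at least 3.12-fold, as given above, AK039045 4.33-fold lower in the adult with neonatal replicate 3 left out and AK032538 4.19-fold lower, and none of the 3 was called. Of the probes outside, uc008urt and uc007zsj were 5.99-fold and 6.27-fold higher in the adult and were called, and AK037075 was 4.28-fold lower and was not.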

How the data were processed

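The deposited Feature Extraction files of 6 single-colour arrays gave the intensity of each probe. The authors' deposited values are log2 and equal the log2 signal, floored, minus a constant for each array, within 0.001 for 100% of the values compared; they hold no comparison columns. Processed signals of repeated spots were averaged, divided by the array's 75th percentile and put on the log2 scale with a floor, the highest of log2(5 / percentile) over the arrays. Testing a probe took 1 array well above background and, once outlier-flagged spots were removed, 2 complete pairs or more. Differences within replicate numbers were fitted with limma 3.58.1 (lmFit, eBayes) in R 4.3.3 and adjusted by Benjamini-Hochberg. Python 3.11.15, numpy 2.4.6, pandas 2.3.3 and scipy 1.17.1 prepared the tables. Other floors, scalings, filters, blocks, tests and fold thresholds were tried, as was leaving out each replicate.

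The replicate numbers come from the labels, and the study's methods use a paired test. Deviations from the age means correlated over 7333 probes, above background on all arrays with no flagged spot, at 0.497, 0.429 and 0.777 for the same number. Other numbers with the same scan date gave 0.508 and 0.470 and different scan dates -0.690 to -0.556. The correlations followed the scan date, and among replicates 1 and 2, which share one, a shared number added nothing.

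For a bound, each array of the age without signal above background is set to at least the lowest level that was well above background on that array. Genes were named where they had the 5 largest differences each way among members above background on all arrays, the 3 largest bounds, at least 4 lncRNAs, a discordant pair, lncRNAs in both directions, the largest called differences among the hosts of a function list, or a place in the germ cell and gonad list. Some hosts that meet this rule, with their lncRNAs, are not reported here. Members and lists were chosen with earlier results of these data known. Function and marker lists came from general knowledge. Probe and lncRNA sequences and the mm9 genome were not used here.

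Flagged spots took more tests from replicate 3 than from the others, 3 arrays of an age limit precision, and hosts without a matched accession on the array were not analysed here.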

Additional observations from a re-analysis of the deposited data

How the results depend on the processing

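Among the tested hosts and lncRNAs that meet the naming rule, no called difference changed its sign under any alternative. Over 58 tested hosts that meet the naming rule and 1019 alternative values, 941 kept their side of the threshold, 46 lost a call, 28 gained one and 4 changed sign without a call: Celf1 on the authors' log2 values (-0.08) and Tgfb2 (0.26), Sorcs1 (0.05) and Foxp2 (0.28) after normexp. Over 68 tested lncRNAs that meet it and 1177 alternative values, 978 stayed within the spread between replicates and 199 moved, with a change of sign in AK052227 alone (0.16 after normexp, not called). With no replicate block, 242 members were called higher in neonatal and 40 in adult testis, hosts numbered 70 and 11, and pairs 65 in the same and 3 in opposite directions. Among the hosts that meet the naming rule, Nsmce2 then lost its call (-2.11) and Bmpr2 gained one (-2.36), and no other call of these hosts changed.

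A shift to the median of each array moved the host median to -2.03. On the authors' log2 values 388 members and 124 hosts were called higher in neonatal testis, 157 pairs in the same and 12 in opposite directions, with a host median of -2.14. Those values include spots flagged here. Normexp, run on the median spot signal since mean signals were absent, gave 54 members higher in neonatal and 26 in adult testis, 39 hosts higher in neonatal testis, 18 pairs in the same and 1 in opposite directions, and a host median of -1.20. The paired t-test after Benjamini-Hochberg gave 43 hosts higher in neonatal testis and 35 pairs in the same direction. With flagged spots kept, 110 pairs had the same and 7 opposite directions. At a fold change of at least 2, 159 hosts were called higher in neonatal and 21 in adult testis, with 191 pairs in the same and 15 in opposite directions. For these the cause was not tested. Leaving out 1 replicate at a time gave 176 to 232 members higher in neonatal and 24 to 38 in adult testis, 20 to 68 and 3 to 11 hosts, 15 to 61 pairs in the same and 1 to 3 in opposite directions, and a host median of -1.79 to -1.38. Fewer probes then have 2 complete pairs, since replicate 3 holds most flagged spots.

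The median over all probes was -0.21, and -0.45 after quantile normalization, -0.44 after the shift to the median, -0.60 on the authors' values and 0.26 after normexp. Signal over background limits the size of differences, since 115 members were not above background on any adult array and 23 on any neonatal array.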
